A study of Macaca mulatta with 28 samples.

Results

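The transcripts described here belonged to 40 genes of microglia, complement and innate immune signaling, and were taken by gene symbol from a table of estimated read counts. Of the 40 genes, 38 had a row among the 16885 rows with a symbol, and C1QA and C4A were not analysed here. The count filter of at least 5 counts in at least 3 animals kept 35 of the 38, within 13769 transcripts kept in all, and 26 of the 35 had a count in every animal.

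RNA came from VTA punches (ventral tegmental area, a midbrain source of dopamine projections to the forebrain), with 1 bulk RNA-seq library from each of 28 adult male wild-type rhesus macaques (Macaca mulatta). Of these, 17 drinkers had self-administered ethanol over repeated open-access periods separated by forced abstinence, and 11 controls were calorically yoked or housing controls without ethanol. The labels put the tissue at 30 days of abstinence and sort the drinkers into the categories Low (n = 1), Binge (n = 2), Heavy (n = 5) and Very Heavy (n = 9). The animals formed 2 cohorts, of 8 drinkers and 8 controls in cohort 1 and of 9 drinkers and 3 controls in cohort 2, and the cohort of those 3 controls was assigned by elimination.

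Total counts lay between 12303914 and 27338669 per animal, and mitochondrially encoded transcripts took 36.4% to 60.6% of them. The summed level of 12 dopamine neuron markers ran from 34.6 to 1792 CPM (counts per 1000000, with library sizes scaled by edgeR's TMM factors), so the punches differed widely in dopamine neuron RNA. In bulk tissue, fewer cells of a type and less RNA per cell cannot be told apart.

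Microglia are the resident macrophages of the brain. They depend on the receptor CSF1R for survival, are specified by the transcription factors PU.1 (the product of SPI1) and IRF8, and supply much of the brain's C1q, the recognition subunit of the classical complement pathway. Toll-like receptors (TLRs) sense microbial and damage signals and act largely through MYD88 and the transcription factor NF-kB, which drives cytokines such as IL1B, TNF and CCL2.

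The defining microglial genes were well counted, with exceptions. AIF1 (the cytoskeletal protein IBA1), CSF1R, CX3CR1 (the fractalkine receptor), P2RY12 (a purine receptor of microglia), GPR34 (a lipid receptor), SPI1, IRF8, ITGAM (complement receptor 3 alpha) and LAPTM5 (a lysosomal membrane protein) had counts in every animal, from 63 counts for AIF1 in the lowest library to 5368 for CSF1R in the highest. TMEM119, a widely used microglial marker, was at 0 in 14 of the 28 animals and reached 13 counts. PTPRC, the leukocyte phosphatase CD45, was at 0 in 25 animals, while TLR4 (the endotoxin receptor) and IL6 were at 0 in all 28. The table lists 1 transcript for each symbol, so reads of any member that were assigned to its other transcripts are not in these values, which also bears on the low counts of TYROBP, CTSS and STAT3.

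The sequences just before 3 members show the letters that the regulators named above are known to bind, and are given because AIF1 belongs to the genes that varied together, CD14 followed them in part, and NFKBIA belongs to the NF-kB group, of whose 27 pairs with identity genes 1 passed the adjusted test of correlation. Each is the 250 bases before the 5′ end of the RefSeq gene record on the Mmul_10 assembly, read 5′ to 3′ on the gene's strand, and capitals mark a match. For AIF1 and CD14 the capitals mark GAGGAAG, a PU.1 motif. For NFKBIA they mark the reverse complement of an NF-kB motif, GGG followed by any 2 bases and TTTCC.
AIF1 (Mmul_10 chr4:137891697-137891946, minus strand): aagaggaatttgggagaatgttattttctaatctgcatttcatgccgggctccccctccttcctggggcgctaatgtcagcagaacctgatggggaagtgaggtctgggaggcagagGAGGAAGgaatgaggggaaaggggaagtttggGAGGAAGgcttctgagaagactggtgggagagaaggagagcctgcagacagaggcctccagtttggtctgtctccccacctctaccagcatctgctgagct
CD14 (Mmul_10 chr6:138014254-138014503, minus strand): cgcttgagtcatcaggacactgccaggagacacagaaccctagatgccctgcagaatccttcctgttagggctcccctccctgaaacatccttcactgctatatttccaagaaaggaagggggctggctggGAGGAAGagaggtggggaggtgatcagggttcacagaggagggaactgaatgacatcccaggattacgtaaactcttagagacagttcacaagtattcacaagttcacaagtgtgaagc
NFKBIA (Mmul_10 chr7:97479222-97479471, minus strand): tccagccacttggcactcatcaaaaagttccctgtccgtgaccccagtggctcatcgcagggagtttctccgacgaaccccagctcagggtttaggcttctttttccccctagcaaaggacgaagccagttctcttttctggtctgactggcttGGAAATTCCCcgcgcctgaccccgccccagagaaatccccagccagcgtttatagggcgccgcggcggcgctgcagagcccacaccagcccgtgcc

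The matches began 133 and 101 bases before the start of AIF1, 119 before CD14 and 96 before NFKBIA. Searched on both strands, GAGGAAG occurred in the window of 3 of 11 microglia identity genes (27.3%), of 4 of 8 phagocytosis and antigen genes (50%), of 1 of 6 pattern recognition genes and of none of the other 14 members with a window, against 9.96% of 20769 protein-coding genes. CSF1R, IRF8, C1QB, C1QC and C3 had no match in this window. The NF-kB motif occurred in 2 of 39 members and in 1.3% of all windows. The interferon-stimulated response element, GAAA followed by any 2 bases and GAAA, occurred before CX3CR1 and CTSS and in 3.03% of all windows. No member's window held more than 1 kind of motif, so matches of different motifs did not overlap. AIF1, TMEM119 and TREM2 each held 2 separate PU.1 matches. A match is a description of letters, and binding was not measured.

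Microglial genes varied together across animals. For the 9 identity genes counted in every animal, all 36 pairs had a positive Pearson r over the 28 animals on log2 CPM (median 0.65, from 0.39 to 0.84), and 29 of 36 had an adjusted p under 0.05. This used a two-sided permutation test with Benjamini-Hochberg adjustment over all 595 pairs of the 35 members, of which 117 passed, all positive. An r of at least 0.6 was found for 23 of the 36 pairs (63.9%) and for 64 of the 595 pairs (10.8%), against 0.348% of all pairs of tested transcripts and 0.562% of pairs of transcripts with a count in every animal. All values of an animal come from 1 library and share its depth and dissection.

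**Figure D1:**
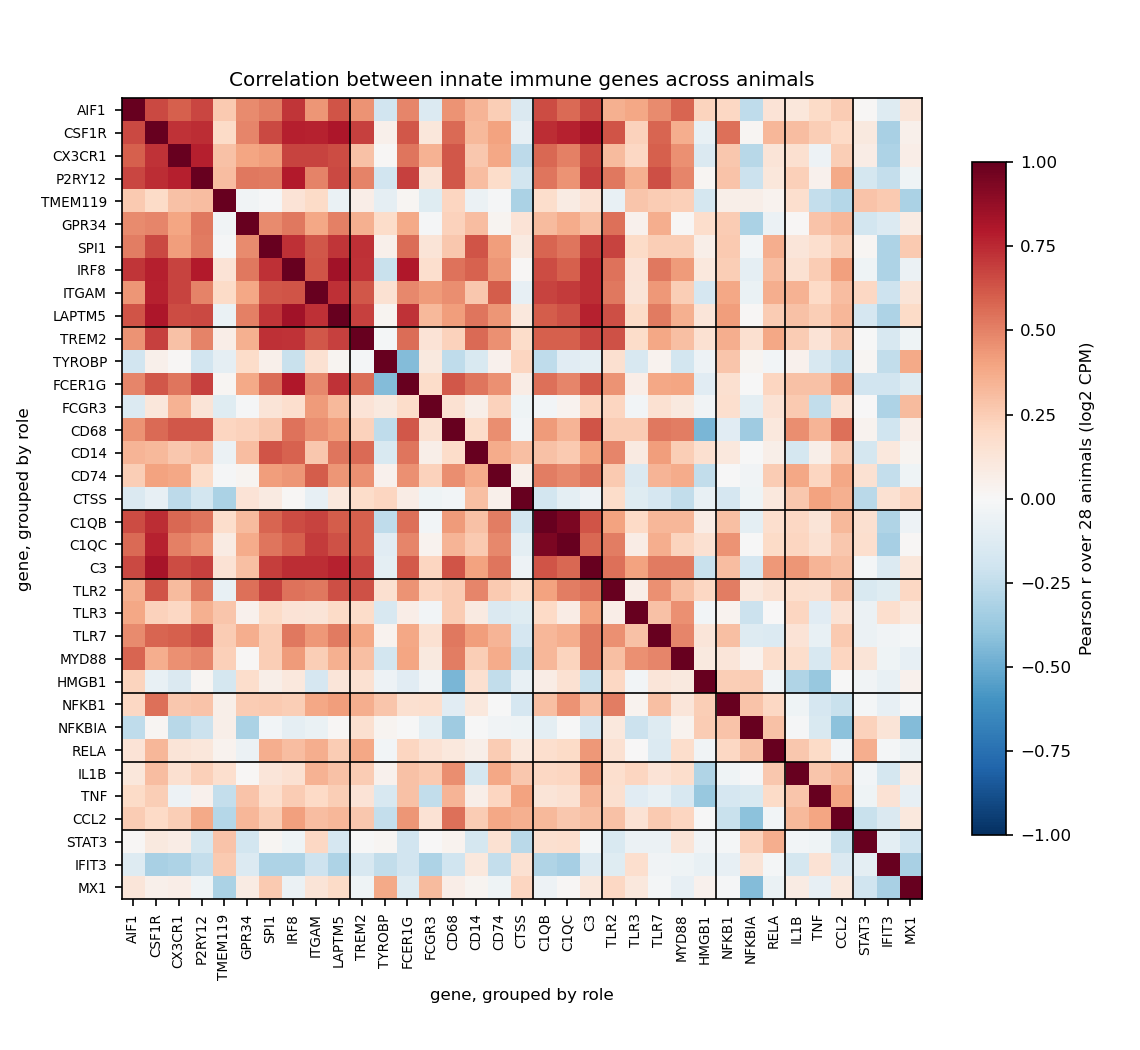
Pearson r over 28 animals between the 35 tested genes (both axes, grouped by role, with lines between roles), on log2 CPM, from blue (negative) to red (positive). Microglia identity genes other than TMEM119, with TREM2, FCER1G, C1QB, C1QC and C3, form a red block, while TMEM119, TYROBP, CTSS, NFKBIA, STAT3, IFIT3 and MX1 stand outside it.

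IRF8 and LAPTM5 gave the highest r among identity genes. It was r = 0.84 with a permutation p of 1e-05, the smallest the permutations can give (adjusted p = 0.000425), and Spearman's rho was 0.80 (permutation p = 1e-05). The r was 0.72 without the 2 animals farthest from the IRF8 median, 0.85 in cohort 1 and 0.86 in cohort 2. IRF8 had a median r of 0.72 with the other identity genes, CSF1R 0.73, LAPTM5 0.69 and GPR34 0.48. TMEM119, with its few counts, had 0.19, and 0.105 without Very Heavy replicate 8, -0.12 in drinkers and 0.60 in controls.

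Complement genes followed the microglial genes. C1QB and C1QC, which encode chains of one C1q molecule and lie 5060 bases apart on chromosome 1 (Mmul_10, 202117786 to 202126077 and 202131138 to 202135635, minus strand), had r = 0.94 (permutation p = 1e-05, adjusted p = 0.000425; rho = 0.91, permutation p = 1e-05). That r was 0.89 without the 2 farthest animals, 0.88 in cohort 1 and 0.98 in cohort 2. C3, the central complement protein, which astrocytes also make under some conditions, had r = 0.82 with CSF1R (permutation p = 1e-05, adjusted p = 0.000425; rho = 0.77, permutation p = 1e-05), 0.73 without the 2 farthest animals, 0.81 in cohort 1 and 0.85 in cohort 2. Of the 27 pairs of an identity gene with C1QB, C1QC or C3, 23 passed the adjusted test, with a median r of 0.65. That median was 0.51 without Very Heavy replicate 8, 0.73 in drinkers and 0.45 in controls. The 3 pairs within complement had a median r of 0.63, with 0.75 in drinkers and 0.23 in controls. These differences were not tested.

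**Figure D2:**
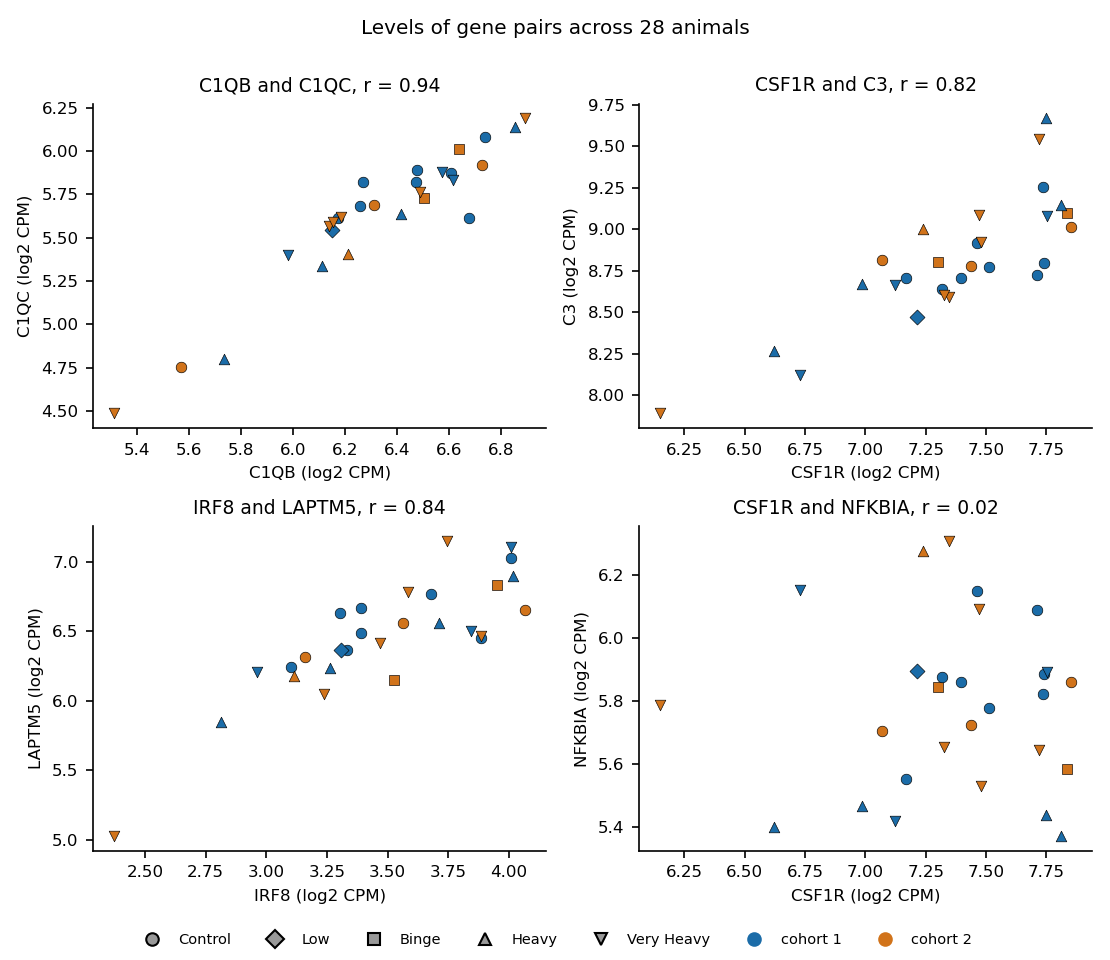
Levels of 4 gene pairs in 28 animals on log2 CPM axes, each point an animal, its shape the drinking category and its color the cohort. C1QB with C1QC, CSF1R with C3 and IRF8 with LAPTM5 rise along a line in both cohorts, with Very Heavy replicate 8 at the low end, and CSF1R with NFKBIA (r = 0.02) shows no line.

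Phagocytosis and antigen genes differed in how closely they followed. TREM2, a lipid-sensing receptor, and FCER1G, a signaling adaptor of Fc receptors, had median r of 0.62 and 0.56 with the identity genes. SPI1 with TREM2 gave r = 0.73 (permutation p = 3e-05, adjusted p = 0.00085; rho = 0.66, permutation p = 0.00023), 0.56 without the 2 farthest animals, 0.82 in cohort 1 and 0.64 in cohort 2. CD68 (a lysosomal protein of macrophages) had 0.47, CD74 (the invariant chain of MHC class II) 0.40 and CD14 (an endotoxin co-receptor) 0.33. Without Very Heavy replicate 8, CD74 had 0.20 and CD14 0.16, and CD74 had 0.55 in drinkers and -0.13 in controls. TYROBP, the adaptor through which TREM2 signals, was at 0 in 11 animals and never above 33 counts, and had a median r of 0.03. CTSS (cathepsin S, at 0 in 22 animals) had -0.08 and FCGR3 (the Fc receptor CD16, at 0 in 8) 0.13, and low counts on the 1 listed transcript of each limit these 3 values. Without Very Heavy replicate 8 TYROBP had -0.14 and CTSS -0.18, and TYROBP had -0.27 in cohort 1 and 0.25 in cohort 2.

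Pattern recognition and NF-kB genes had a wide range of r with the identity genes. TLR2, which senses bacterial lipoproteins, and TLR7, which senses single-stranded RNA, had median r of 0.54 and 0.52 with identity genes, and 0.37 and 0.33 without Very Heavy replicate 8, the animal with the lowest identity genes. MYD88 (an adaptor of most TLRs) had 0.37, TLR3 (a sensor of double-stranded RNA) 0.19 and HMGB1 (a nuclear protein that signals through TLRs when released) 0.06. MYD88 had 0.63 in cohort 1 and -0.0035 in cohort 2, and HMGB1 had 0.035 without Very Heavy replicate 8, 0.018 in drinkers and 0.41 in controls. Of the 27 pairs of an identity gene with NFKB1, NFKBIA or RELA, 1 passed the adjusted test, which was CSF1R with NFKB1 (r = 0.55, permutation p = 0.00272, adjusted p = 0.0195; rho = 0.49, permutation p = 0.00835). That r was 0.34 without the 2 farthest animals, 0.51 in cohort 1 and 0.70 in cohort 2. NFKB1 and RELA encode NF-kB subunits and NFKBIA their inhibitor, with median r of 0.27 for NFKB1 (0.15 without Very Heavy replicate 8), 0.25 for RELA and -0.09 for NFKBIA. NFKB1 had 0.13 in cohort 1 and 0.60 in cohort 2, and NFKBIA had -0.25 in drinkers and 0.24 in controls, and 0.027 in cohort 1 and -0.23 in cohort 2. Their own 3 pairs had r from 0.21 to 0.29, with a median of 0.34 in drinkers, -0.19 in controls, 0.38 in cohort 1 and 0.033 in cohort 2.

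Cytokine and interferon genes had median r between -0.31 and 0.31 with the identity genes. IL1B had a median r of 0.16, TNF 0.20, CCL2 0.31, STAT3 0.01, MX1 0.08 and IFIT3 -0.31 with them, and no such pair passed the adjusted test. CCL2 had 0.13 in cohort 1, 0.62 in cohort 2 and 0.19 without Very Heavy replicate 8, and without that animal TNF had 0.12 and IL1B 0.11. Signs differed between the arms, with 0.38 in drinkers and -0.34 in controls for TNF, 0.47 and -0.12 for CCL2, 0.14 and -0.11 for MX1, -0.40 and 0.050 for IFIT3, and -0.045 and 0.055 for STAT3, and these differences were not tested. Of the pairs with CCL2, a monocyte chemokine, 1 passed, with CD68 (r = 0.55, permutation p = 0.00237, adjusted p = 0.0178; rho = 0.65, permutation p = 0.00025). It was 0.73 without the 2 farthest animals, 0.55 in cohort 1 and 0.68 in cohort 2.

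Very Heavy replicate 8, a cohort 2 drinker, had the lowest level of 8 of the 9 identity genes. The geometric mean of each animal's levels relative to each gene's median was 0.448 there and 0.714 to 1.34 in the other 27 animals. Its CSF1R level was 70.9 CPM, its C1QB level 39.7 CPM and its C3 level 237 CPM, the lowest of all animals in each case, against medians of 171, 82.5 and 442 CPM. Its HMGB1 level of 167 CPM and RELA level of 33.1 CPM lay near the medians of 171 and 33.0 CPM. Its summed dopamine neuron markers (141 CPM) ranked 11 from the lowest and its mitochondrial share was 53.7%. Counted from the lowest, it ranked 1 of 28 for summed MHC genes (521 CPM), 2 for other microglia genes (516 CPM) and lymphocyte markers (0.907 CPM), and 3 for border macrophage and monocyte markers (36.3 CPM) and other interferon and STAT genes (675 CPM), and their part in its low values was not tested. Without this animal, 47 of 595 pairs passed in place of 117, and the median r of identity pairs was 0.51 in place of 0.65.

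Pairs of identity genes had a positive median r within each cohort and within each arm. They had a median r of 0.47 in cohort 1 and 0.79 in cohort 2, which holds Very Heavy replicate 8, and all 36 were positive in each. Drinkers alone gave a median of 0.70 and controls alone 0.52. The geometric mean level of identity genes over the 28 animals had r of 0.12 with the mitochondrial share (rho = 0.25). It had r of 0.15 with total counts (rho = 0.27) and -0.16 with the TMM factor (rho = -0.30).

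**Figure D3:**
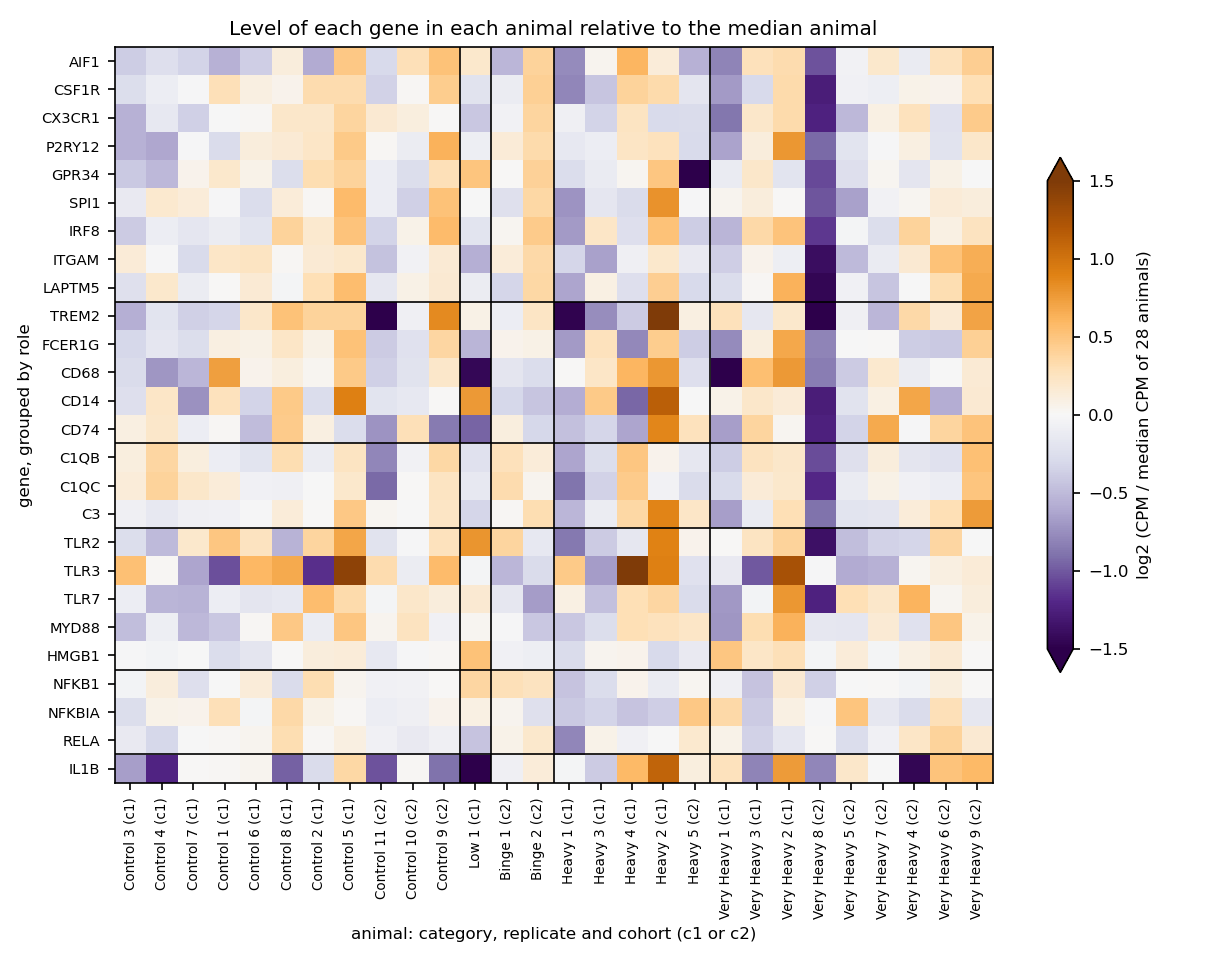
Level of the 26 genes with a count in every animal (rows, grouped by role) in each of 28 animals (columns, by category and cohort) as log2 of CPM over the gene's median CPM, from purple (below) to brown (above). Very Heavy replicate 8 is purple across microglial and complement rows, and no drinking category or cohort is purple or brown throughout.

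Identity genes differed little between drinkers and controls. CSF1R ran from 134 to 231 CPM in controls (median 177, n = 11) and from 70.9 to 228 CPM in drinkers (median 160, n = 17). In the Low animal it was 148 CPM, in the Binge animals 158 and 228 CPM, and in the Heavy animals 98.4, 215, 127, 224 and 151 CPM. Very Heavy animals ran from 70.9 to 216 CPM (median 163), so each category overlapped the controls. The log2 fold change of drinkers against controls was -0.16 with a standard error of 0.14 (95% interval -0.45 to 0.13; edgeR quasi-likelihood test, adjusted p = 1).

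The geometric mean level of the 9 identity genes ran from 0.811 to 1.34 in controls (median 0.983) and from 0.448 to 1.30 in drinkers (median 0.951). Heavy animals ran from 0.714 to 1.25 (median 0.894) and Very Heavy animals from 0.448 to 1.27 (median 1.05). Cohort 1 had a median of 0.986 and cohort 2 one of 0.967. The ranges overlapped in every case.

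C3, at 399 to 612 CPM in controls (median 439), ran from 237 to 813 CPM in drinkers (median 446). Heavy animals had 308, 813, 408, 567 and 512 CPM, and Very Heavy animals ran from 237 to 746 CPM (median 406). The 2 highest and the 6 lowest animals were drinkers, whose standard deviation was 153 CPM against 60.6 CPM in controls. The log2 fold change was 0.03 (standard error 0.14, 95% interval -0.26 to 0.32), with a direction that depended on single animals and on the test. C1QC ran from 26.9 to 67.7 CPM in controls (median 56.5) and from 22.4 to 72.9 CPM in drinkers (median 49.1), with a log2 fold change of -0.10 (standard error 0.14).

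No member passed the adjusted test between drinkers and controls, where the share of all tested transcripts that passed was 0%. No member had an unadjusted p under 0.05, against 4.57% of all tested transcripts, and DESeq2 and limma-voom called 0 members. Of the 35 members, 15 were higher and 20 lower in drinkers, and their median log2 fold change was -0.02 against 0.0015 over all 13769 transcripts. By role, identity genes had 2 higher and 8 lower, phagocytosis and antigen genes 5 and 3, complement 1 and 2, pattern recognition 3 and 2, NF-kB 0 and 3, cytokines 2 and 1, and STAT3 with interferon genes 2 and 1. For the 26 members counted in every animal the interval of each log2 fold change held 0.

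**Figure D4:**
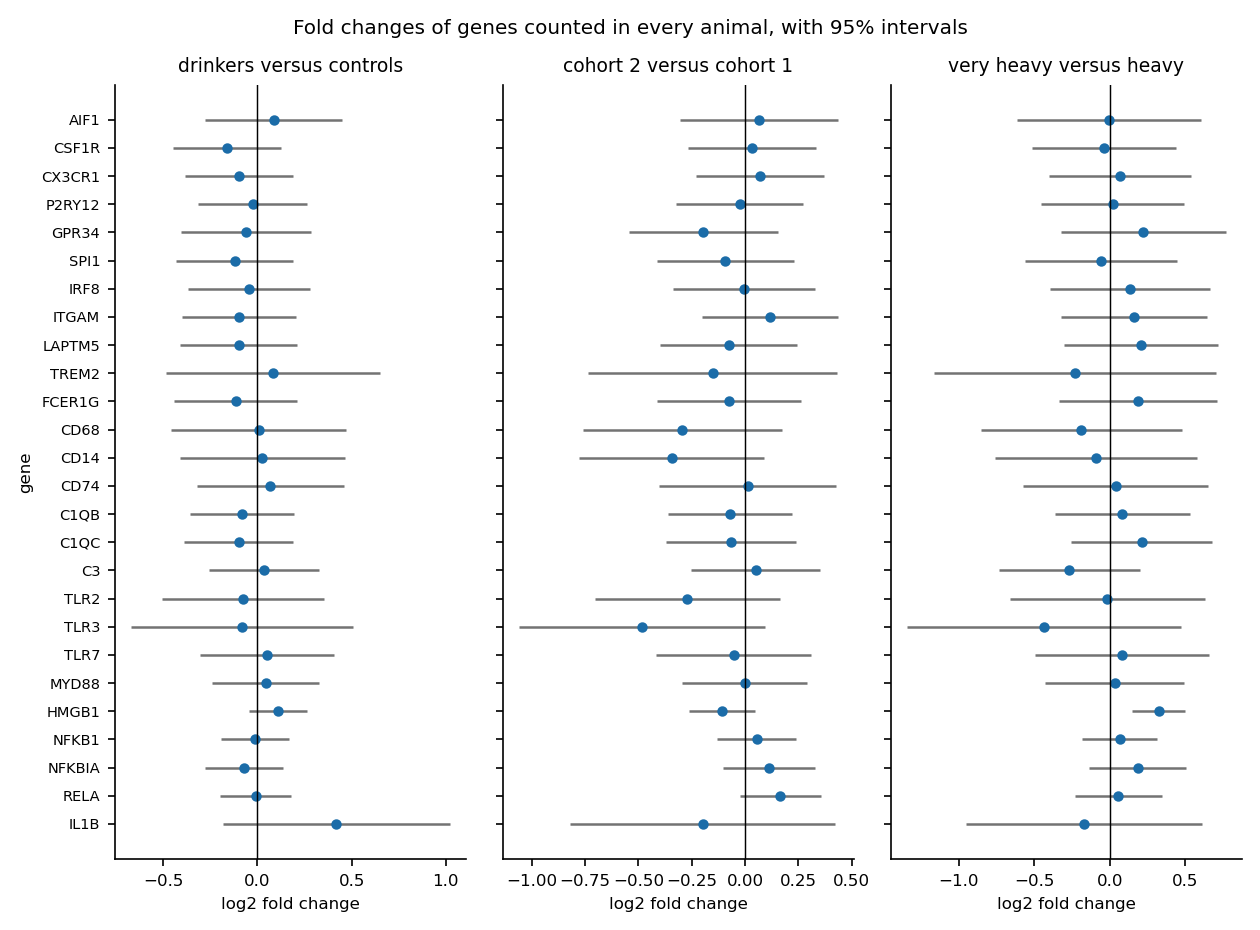
Log2 fold changes (points) with 95% intervals (lines) from edgeR for the 26 genes with a count in every animal, for drinkers against controls, cohort 2 against cohort 1 and Very Heavy against Heavy animals. Intervals include 0 in the first 2 panels, and HMGB1 (0.32, interval 0.15 to 0.50) is the gene whose interval leaves 0 out in the third.

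HMGB1 was the 1 of 35 members with an unadjusted p under 0.05 in Very Heavy against Heavy, beside 6.27% of all transcripts. It did not pass edgeR's adjusted test. Heavy animals had 141, 139, 176, 177 and 156 CPM and Very Heavy animals 167 to 239 CPM (median 187). Controls had 142 to 188 CPM (median 169) and Binge animals 163 and 160 CPM. The Low animal had 244 CPM, the highest of all 28 animals. Within cohort 1 the 3 Very Heavy animals (239, 208 and 199 CPM) were all above the 4 Heavy ones, and in cohort 2 the Very Heavy animals (167 to 190 CPM) were above the single Heavy animal (156 CPM). The log2 fold change of Very Heavy against Heavy was 0.32 (standard error 0.084, 95% interval 0.15 to 0.50), with an unadjusted p of 0.000778 in edgeR and an adjusted p of 0.591.

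DESeq2 gave HMGB1 an adjusted p of 0.0279 in that comparison and called 77 transcripts in all, against 0 in edgeR. The other 6 alternatives to the test, filter and covariates gave adjusted p-values from 0.489 to 0.664, and leaving out each Heavy animal in turn gave log2 fold changes from 0.27 to 0.36. Very Heavy against control gave HMGB1 a log2 fold change of 0.23 (standard error 0.067, adjusted p = 0.559 in edgeR), and Heavy against control gave -0.09 (standard error 0.077). HMGB1 has processed copies in primate genomes, so how reads were divided among them is uncertain.

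No member passed edgeR's adjusted test between drinking categories, where 0% of tested transcripts passed in Very Heavy against control, in Heavy against control and in Very Heavy against Heavy. At an unadjusted p under 0.05 the members were HMGB1 alone in the first and the last of these and none in the second, against 6.49%, 6.27% and 7.28% of all transcripts for the first, the last and the second. The median over members was -0.02 for Very Heavy against control, -0.07 for Heavy against control and 0.04 for Very Heavy against Heavy, beside -0.02, -0.01 and -0.00026 over all transcripts. All these comparisons share animals with one another.

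**Figure D5:**
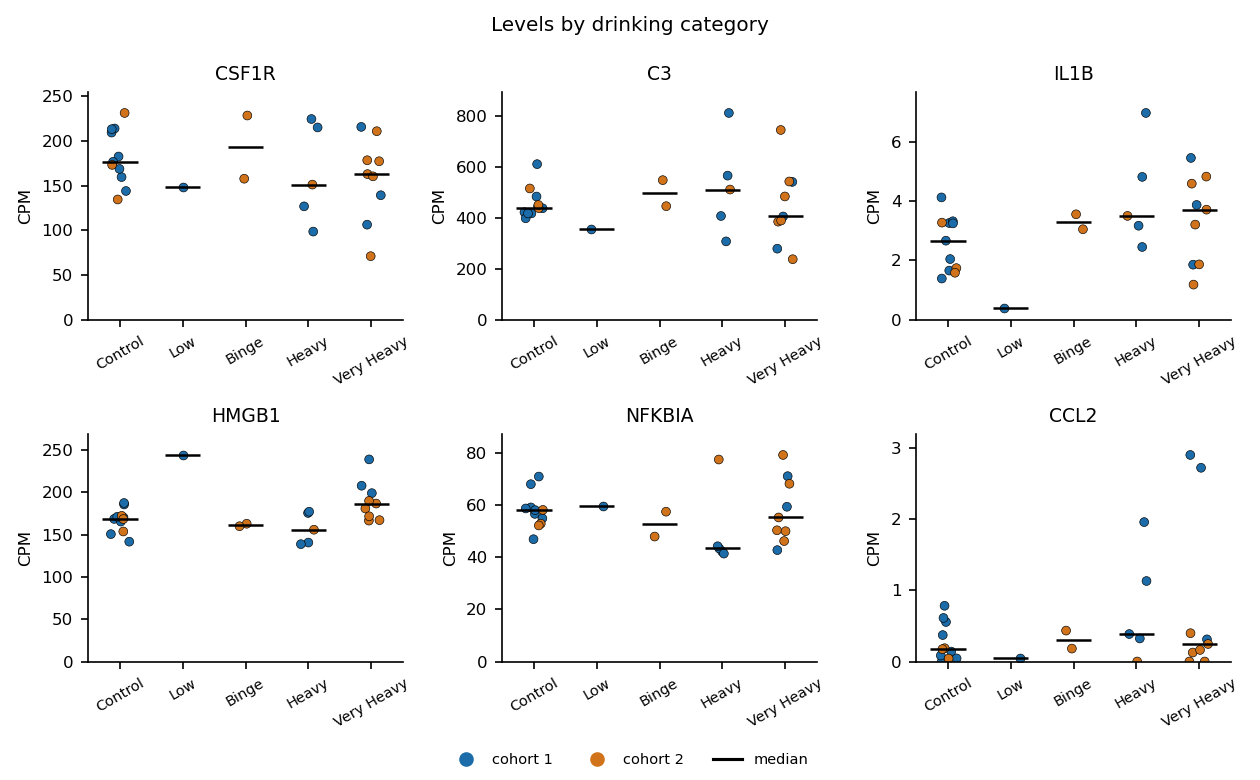
CPM of CSF1R, C3, IL1B, HMGB1, NFKBIA and CCL2 by drinking category, each point an animal colored by cohort and each line the category's median. HMGB1 lies at 139 to 177 CPM in Heavy and 167 to 239 CPM in Very Heavy animals, and CCL2 is above 1 CPM in 4 cohort 1 drinkers.

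IL1B, an inflammasome-processed cytokine, ran from 1.38 to 4.12 CPM in controls (median 2.66) and from 0.372 to 6.97 CPM in drinkers (median 3.50). Heavy animals had 3.17, 6.97, 2.45, 4.81 and 3.50 CPM, and Very Heavy animals 1.18 to 5.45 CPM (median 3.71). The Low animal had 0.372 CPM, on 7 counts, the lowest of all, and the groups overlapped. The log2 fold change was 0.42 (standard error 0.29) for drinkers against controls and 0.68 (standard error 0.34, adjusted p = 0.695 in edgeR) for Heavy against control, and the latter was 0.45 without Heavy replicate 2.

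CCL2 had between 0 and 56 counts per animal. It was at 0 to 0.784 CPM in controls (median 0.174) and at 0 to 2.91 CPM in drinkers (median 0.312). The counts were 49 and 25 in Heavy replicates 2 and 3 and 56 and 56 in Very Heavy replicates 2 and 3, all of cohort 1, and at most 20 in every other animal. Cohort 1 drinkers ran from 0.0532 to 2.91 CPM and cohort 2 drinkers from 0 to 0.435 CPM. Drinkers against controls gave a log2 fold change of 1.28 (standard error 0.83), which was 0.61 with limma-voom, 1.902 (standard error 0.94) in cohort 1 and 0.36 (standard error 1.25) in cohort 2.

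Cohort 2 against cohort 1, with drinker status in the fit, gave CCL2 a log2 fold change of -2.24 (standard error 0.76, 95% interval -3.79 to -0.69, unadjusted p = 0.00621 and adjusted p = 0.236 in edgeR). No member passed the adjusted test in this comparison, in which 0.0436% of transcripts passed, and CCL2 was the 1 member with an unadjusted p under 0.05, against 9.8% of all transcripts. Of the 35 members 12 were higher and 23 lower in cohort 2, with a median of -0.06 against 0.02 over all transcripts. TLR3 had 1.75 to 12.2 CPM in cohort 1 and 2.60 to 5.81 CPM in cohort 2, with a log2 fold change of -0.48 (standard error 0.28). That value was -0.017 in controls only, -0.75 in drinkers only and -0.31 without Heavy replicate 4.

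The NF-kB subunit RELA had opposite signs in the 2 cohorts for drinkers against controls, without passing the adjusted test. It ran from 26.6 to 41.0 CPM in cohort 1 controls (median 33.4) and from 19.0 to 34.5 CPM in cohort 1 drinkers (median 30.4). In cohort 2 it was 30.0 to 31.6 CPM in the 3 controls and 27.5 to 43.3 CPM in drinkers (median 37.2), so groups overlapped in both cohorts. The interaction of cohort with drinking was 0.40 on the log2 scale (standard error 0.18, unadjusted p = 0.0352, adjusted p = 0.475 in edgeR), from -0.20 (standard error 0.11) in cohort 1 and 0.20 (standard error 0.15) in cohort 2. NFKBIA gave 0.35 (standard error 0.21) and NFKB1 0.17 (standard error 0.19) for the same term.

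NFKBIA was at 42.2, 43.4, 44.2 and 41.4 CPM in the 4 Heavy animals of cohort 1 and at 77.5 CPM in the 1 of cohort 2. Controls ran from 46.9 to 71.0 CPM and Very Heavy animals from 42.8 to 79.3 CPM. Those 4 Heavy animals were thus below all 11 controls, and the Heavy group as a whole had a log2 fold change of -0.22 against controls (standard error 0.15, adjusted p = 0.850 in edgeR).

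The interaction was called in 0.0145% of all transcripts and in no member, and 2 of 35 members had an unadjusted p under 0.05, RELA and CTSS, against 9.62% of all transcripts. CTSS had counts in 6 animals only (6, 8 and 12 in controls, 21, 28 and 19 in drinkers), with all 3 of those drinkers in cohort 1. Drinkers against controls called 0.959% of transcripts in cohort 1 and 0% in cohort 2, and no member in either. The medians over members were 0.02 in cohort 1 and -0.06 in cohort 2, and the 2 comparisons differ in size, with 3 controls in cohort 2.

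MX1 and IFIT3, which interferon induces, varied widely with no pattern by group. MX1 was at 0 in 3 animals (a control, a Binge and a Very Heavy animal) and at up to 67.4 CPM in others, and IFIT3 was at 0 in 6 animals and at 21.1 CPM in the Low animal. Their log2 fold changes in drinkers were 0.08 (standard error 0.57) and 0.42 (standard error 0.85). STAT3, a cytokine-responsive transcription factor, had at most 39 counts, and TNF at most 12. TREM2 ran from 2.41 to 13.9 CPM in controls and from 2.63 to 12.7 CPM in drinkers other than Heavy replicate 2, which had 26.7 CPM.

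Other genes of these pathways were counted in the same fits. Of 22 other microglia genes tested, 0 passed the adjusted test in edgeR between drinkers and controls and 3 had an unadjusted p under 0.05, 1 higher and 2 lower. The lowest p was that of DOCK2, a regulator of leukocyte migration, which was higher in drinkers (unadjusted p = 0.00354, adjusted p = 0.518 in edgeR) but at 0 in 25 animals, so no fold is given, and the next was CORO1A, an actin regulator of leukocytes (-0.25, standard error 0.11). An unadjusted p under 0.05 was found for 1 of 13 disease associated microglia genes (CSF1, the ligand of CSF1R, -0.19, standard error 0.077). The further counts were 2 of 17 other complement genes, 1 of 27 other TLR and NF-kB genes and 1 of 19 other cytokine genes. They were 1 of 33 other interferon and STAT genes and 0 of 6 MHC genes, beside 4.57% of all transcripts. The complement, TLR and NF-kB, cytokine and interferon counts all rested on transcripts at 0 in most animals. These were VSIG4 (at 0 in 23 animals), C7 (22), CHUK (18), IL6R (21) and STAT5A (23), so no fold is given for them. Between cohorts, 6 of 13 disease associated microglia genes had an unadjusted p under 0.05 (2 higher and 4 lower in cohort 2), beside 9.8% of all transcripts, and none passed the adjusted test. IKBKB, an NF-kB kinase (-0.47, standard error 0.14, adjusted p = 0.2 in edgeR), and CTSL, a lysosomal protease (-0.20, standard error 0.054, adjusted p = 0.157 in edgeR), had lower fitted levels in cohort 2, and neither passed.

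Markers of other cells were measured beside these genes. The summed level of 15 border macrophage and monocyte markers, at 35.6 to 79.7 CPM over all animals with S100A12 at 0, had r = 0.75 with the geometric mean of the identity genes. Gene by gene, the 9 tested markers of this list had a median of 0.14 for their mean r with the identity genes, from -0.18 for VCAN to 0.59 for MS4A7, so the summed level does not stand for the list as a whole. Lymphocyte markers summed to 0.896 to 9.86 CPM, with IL7R and JCHAIN at 0, and had r = 0.11, and blood markers summed to 0.157 to 11.8 CPM, with ALAS2 at 0, and had r = 0.31. Astrocyte markers had r = 0.21, oligodendrocyte markers 0.36, endothelial and pericyte markers 0.08, dopamine neuron markers 0.33 and neuron markers -0.43. The part of these cells in the covariation was not tested.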

How the data were processed

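RNA was extracted from VTA punches, and libraries were made with the NuGEN Universal Plus mRNA kit and sequenced as paired ends. The submitters' processing notes name Trim Galore 0.6.7, Salmon 1.9.0 and DESeq2 1.36.0, and the Mmul_10 assembly. The deposited values are estimated counts, 1 transcript for each gene symbol, made by the authors from Salmon's output and not normalized. They were rounded to whole numbers here, and the 1 row without a symbol (1.16e-05% of counts) was left out. How the transcript of each symbol was chosen is not given in the sources used here.

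Transcripts that reached 5 counts in 3 or more of the 28 animals were tested with edgeR 4.0.16 (quasi-likelihood, TMM, Benjamini-Hochberg adjustment at 0.05) in R 4.3.3, after the scripts were tested on simulated data. Drinkers against controls had no covariate, category comparisons had cohort, the cohort comparison had drinker status, and values within cohorts came from a fit of the 4 cohort by drinker groups. Correlations used log2 CPM with a prior count of 2 and 100000 permutations. Intervals are 95%. DESeq2 1.42.0, limma 3.58.1 (voom), other filters and scalings, and leaving out animals were the alternatives. Groups came from the labels. Cohorts came from the study's description, and were used as a covariate and as a compared factor. Each library came from a different animal, and the most similar pair of libraries had identical counts for 1.77% of transcripts. Depth was 12303914 to 27338669 counts per animal, so transcripts with few counts have wide errors, and intervals cover the spread between these animals.

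The members and gene lists were chosen with earlier results of these data known. All members were accounted for. Of other lists, transcripts past the adjusted threshold were to be named (at most 5 a list and comparison), otherwise at most 2 a list by lowest p, and of transcripts outside all lists the 10 with the highest mean r with the identity genes. Promoter windows and gene records came from RefSeq on Mmul_10, with Python 3.11.15. Some results that these steps gave are not reported here.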

Additional observations from a re-analysis of the deposited data

Results flagged for a closer look

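Among 70 groups of 4 to 10 animals tested for a single animal far from the rest, 7 had one. Chance gives about 1 in 20 for a single group. These groups share animals and hold genes that varied together, so the 7 are not independent and no excess can be read from them. Very Heavy replicate 8 was the lowest of its group, with a wide gap to the next animal, for GPR34 (11.2 CPM, others 19.8 to 26.98), for C1QC (22.4 CPM, others 42.2 to 72.9) and for TLR2 (1.22 CPM on 27 counts, others 2.27 to 4.15). Heavy replicate 5, the one Heavy animal of cohort 2, was far above the others for NFKBIA (77.5 CPM, others 41.4 to 44.2). Heavy replicate 1 was far below the others for RELA (19.0 CPM, others 31.5 to 37.4). Very Heavy replicate 5 was at 0 for MX1, where the others had 15.4 to 59.1 CPM. Very Heavy replicate 1 had 1.18 CPM of CTSS, on 19 counts, with the others at 0.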

How the results depend on the processing

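No paired analysis was possible because the labels give no replicate numbers that groups share. The study yoked each caloric control to a drinker, and the labels do not identify these pairs. No member was called in any comparison under any alternative run, except that DESeq2 called 1, HMGB1, in Very Heavy against Heavy. With DESeq2 the transcripts called were 11 for drinkers against controls, 121 between cohorts, 47 for Very Heavy against control, 87 for Heavy against control, 77 for Very Heavy against Heavy, 129 for the interaction, 429 for drinking in cohort 1 and 54 in cohort 2. With limma-voom they were 23 between cohorts, 2 for Heavy against control and 3 for drinking in cohort 2. Between cohorts, 3 were called with DESeq2 size factors in edgeR, 10 with at least 10 counts in every animal, 105 in drinkers only and 0 in controls only (493 at an unadjusted p under 0.05 in edgeR). Cohort 1 fitted alone, an alternative added after the data were seen, called 5. Leaving out 1 animal at a time gave 0 to 8 between cohorts (each of 28 animals), 0 to 1 for Heavy against control (each of 5 Heavy animals) and 0 to 4 for the interaction (each of the 3 controls of cohort 2). The cause of these differences was not tested.

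Of all 595 member pairs, 117 passed the adjusted test as reported. The count was 56 with Spearman's rho, 15 in cohort 1 only, 45 in cohort 2 only, 68 in drinkers only, 0 in controls only (75 at an unadjusted permutation p under 0.05) and 47 without Very Heavy replicate 8, the last also added after the data were seen. The subsets hold fewer animals. The C3 log2 fold change of 0.03 turned to -0.023 with limma-voom, to -0.034 without Heavy replicate 2 and to -0.018 without Very Heavy replicate 9, and ran from -0.034 to 0.082 over single animals left out. CCL2 in drinkers against controls ran from 0.61 to 1.33 over the alternatives of test, filter and covariate. CCL2 between cohorts ran from -2.79 to -1.24 (adjusted p from 0.0625). Low counts limit TMEM119, TYROBP, CTSS, FCGR3, TNF, CCL2 and STAT3.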

Other observations

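Outside all the lists used here, the transcripts most like the 9 identity genes over the 28 animals were MPEG1 (mean r = 0.67), a pore-forming protein of macrophages, PTAFR (0.66), the receptor of platelet-activating factor, and LAT2 (0.65), an adaptor of immune cells. HIPK1 (0.63), CCR1 (0.62), NPC2 (0.62), HMOX1 (0.61), LIMD2 (0.60), CTSZ (0.60) and ARHGDIB (0.59) followed. These values are a description, and no test was made of them.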
